A study of Mus musculus with 2 samples.

Results

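Aminoacyl-tRNA synthetases are the enzymes that join each amino acid to its transfer RNA, and the mouse genome encodes separate sets for protein synthesis in the cytosol and in the mitochondria. The genes were taken by symbol from the protein-coding genes of the mm10 RefSeq annotation, and the pattern for the family selected 38 of 21000 genes. Of these, 19 encode cytosolic enzymes, 17 encode mitochondrial enzymes, and Gars and Kars each encode an enzyme that works in both compartments. Gars and Kars are counted with the cytosolic genes unless stated, which gives 21 cytosolic genes.

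NRF1 (nuclear respiratory factor 1) was profiled by ChIP-seq in skeletal muscle of wild-type mice, to locate its binding in this tissue. ChIP-seq recovers the DNA that a protein occupies with an antibody and reads it by sequencing, so that occupied sites appear as peaks over a control. The series has 2 libraries, which the labels place in 1 group with the same genotype, tissue and antibody, without age, muscle or animal number. A reporting form that accompanies the study lists the second library as input DNA, against its label, and the single deposited list of 3226 peaks carries the title of the first library. The number of peaks in this list differs from the number in the text of the study, so it may not be the set counted there. No replicate error could therefore be given for any value below, and the read depth of the list is unknown. The list reports where NRF1 was found and holds no expression level, so neither the tissue label nor the activity of any gene could be checked from it. Whole muscle also contains nuclei of other cell types, and the peaks do not separate them.

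Each synthetase is named for its amino acid in the single-letter code, so that Sars is the seryl enzyme, and a final 2 in the symbol usually marks the mitochondrial form. All of the mitochondrial synthetases are encoded in the nucleus and imported, because the mitochondrial genome supplies transfer RNAs and ribosomal RNAs but no synthetase. NRF1 binds a GC-rich palindrome, GCGCATGCGC, close to the starts of many genes, and it is known above all for genes of the respiratory chain and for nuclear genes that serve the mitochondrial genome and its expression.

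A promoter was defined as 1000 bp before to 100 bp after any transcription start of a gene, and a gene had a promoter peak when the summit of a peak, its highest point, fell inside. NRF1 promoter peaks were found at 13 of the 38 synthetase genes, or 34.2% (Wilson 95% interval 21.2 to 50.1, which covers counting error over genes only). The background was 13.4% of all protein-coding genes, or 2808 of 21000. The cytosolic genes with a peak were Farsb, Gars, Kars, Sars and Tars. The mitochondrial genes with a peak were Iars2, Mars2, Nars2, Pars2, Rars2, Vars2, Wars2 and Yars2.

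Sequences at or close to the 13 summits are shown so that each can be set beside the NRF1 palindrome. Each line gives 30 bases of the mm10 reference (RefSeq, GRCm38.p6), centred on the closest copy of the palindrome within 100 bp of the summit and written 5′ to 3′ on the strand of the gene, with the copy in capitals. For Vars2, which had a pair of copies with 1 mismatch, 56 bases are shown.
Farsb (chr1:78488850-78488879, minus strand): cccgcatgtgGCGCAGGCGCagtgtccacg
Sars (chr3:108445183-108445212, minus strand): ccaggtcagcGCGCAGGCGCagtgcatcgt
Tars (chr15:11399808-11399837, minus strand): ggggaagagtGCGCTTGCGCgcctcactac
Kars (chr8:112011384-112011413, minus strand): gcccagcactGCGCCTGCGCagcgagagtc
Gars (chr6:55037928-55037957, plus strand): tgcgggaagtGCGGCTGCGCgcgcctgcgg
Pars2 (chr4:106651077-106651106, plus strand): ggccatgtcgGCGCAGGCGCactggctttg
Iars2 (chr1:185329374-185329403, minus strand): ccgccccggaGCGCGTGCGCagttcctcgc
Mars2 (chr1:55237169-55237198, plus strand): ccgtccagctGCGCACGCGCcctttcccgt
Rars2 (chr4:34614894-34614923, plus strand): gcggccccgtGTGCATGCGCactccacact
Wars2 (chr3:99141016-99141045, plus strand): cagaggacagGCGCATGCGTagtaagcaca
Vars2 (chr17:35667595-35667650, minus strand): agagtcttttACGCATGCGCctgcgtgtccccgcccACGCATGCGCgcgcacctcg
Nars2 (chr7:96951471-96951500, plus strand): ggacacaatcACGCATGCTCagactccacc
Yars2 (chr16:16302896-16302925, plus strand): cgctacgcccGAGCATGCGTagagagacac

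None of the 13 genes had an exact palindrome within 100 bp of its summit, beside 311 of the 2808 protein-coding genes with a promoter peak (11.1%), a share at which 0 of 13 is no result about the synthetases. A copy with at most 1 mismatch was found at 10 of them (76.9%), against 1866 of these 2808 genes (66.5%). Of the 1866, 1555 had a best copy with 1 mismatch and the rest an exact one. By compartment these were 4 of the 5 cytosolic genes and 6 of the 8 mitochondrial genes. The remaining genes, Gars, Nars2 and Yars2, had a closest copy with 2 mismatches, and under the limit of 1 mismatch they count as lacking the motif. Gars held 5 copies with 2 mismatches within 100 bp of its summit, and Nars2 and Yars2 held 2 each. For each gene only the copy nearest the summit is in capitals above.

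In the substitutions that follow, positions are counted from 1 at the 5′ end of the printed copy, and the base of the palindrome is given before the position and the base of the site after it. Farsb, Sars and Pars2 carried T6G, and Kars carried A5C, which gives the same sequence read on the opposite strand. That variant was the most frequent single-mismatch form, present in 608 of the 1555 protein-coding genes whose best copy at the peak had 1 mismatch (39.1%) and in 4 of the 10 synthetase genes. Tars carried A5T, Iars2 carried A5G and Mars2 carried T6C, so these 3 sites also differed from the palindrome at its centre only. The copies of Iars2 and Mars2 are the same sequence read on opposite strands. In all 4 cytosolic genes with a single-mismatch copy the mismatch was at position 5 or 6. The mitochondrial genes were split, with 3 of 6 changed at the centre. Over all protein-coding genes of this kind the share was 1132 of 1555 (72.8%), and over the synthetases it was 7 of 10.

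Rars2 with C2T, Wars2 with C10T and Vars2 with G1A kept the centre and were changed near an end. The copy of Wars2 is the copy of Vars2 read on the opposite strand. The 6 central bases GCATGC were kept in 3 of the 6 mitochondrial genes with a single-mismatch copy and in 0 of the 4 cytosolic ones, beside 343 of 1555 protein-coding genes (22.1%). The printed copies of Nars2 (G1A and G9T) and Yars2 (C2A and C10T), with 2 mismatches, also kept these bases and are 1 sequence in opposite orientations. The printed copy of Gars (C4G and A5C) did not keep them. Copies with 2 mismatches were not set beside those of other genes. The difference between compartments rests on 10 genes and was not tested. Vars2 was the only gene of the family with more than 1 copy of at most 1 mismatch within 100 bp of its summit, and these copies carried the same substitution and had centres 26 bp apart.

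Of the mitochondrial genes 8 of 17 had a promoter peak, or 47.1% (26.2 to 69.0), and of the cytosolic genes 5 of 21, or 23.8% (10.6 to 45.1). The intervals overlap widely. The cytosolic share depended on the enzymes that serve both compartments, since Gars and Kars each had a peak. Without them 3 of 19 cytosolic genes had a peak, or 15.8% (5.5 to 37.6), close to the background of all protein-coding genes. With them on the mitochondrial side, 10 of 19 genes had a peak, or 52.6% (31.7 to 72.7). The mitochondrial side therefore had the higher share under either assignment of Gars and Kars, by an amount that was not tested.

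**Figure D1:**
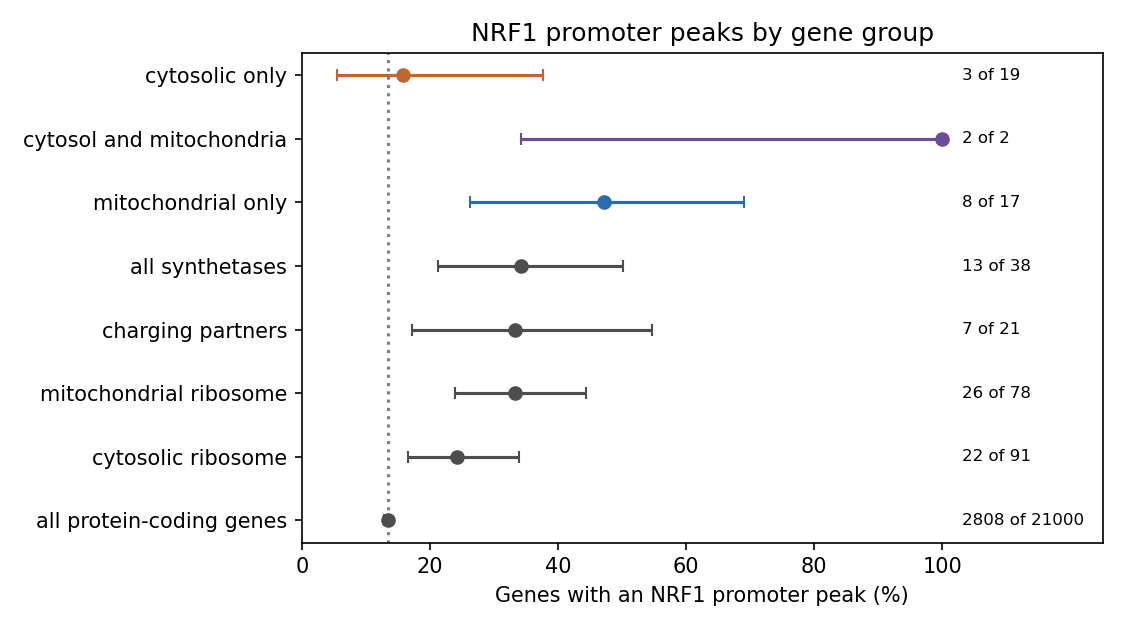
Percentage of genes with an NRF1 promoter peak in each gene group (x axis, in percent), with the number of genes; points are shares, horizontal lines are Wilson 95% intervals over genes, and the dotted line is the share of all protein-coding genes. The mitochondrial synthetases sit at 47.1% and those that are cytosolic alone at 15.8%, with overlapping intervals, against 13.4% for all protein-coding genes.

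The ribosomal proteins of the same compartments were set beside the synthetases. Of the genes named Mrpl and Mrps, for the mitochondrial ribosome, 26 of 78 had a promoter peak (33.3%, 23.9 to 44.4). The genes named Rpl and Rps, without Rps6k, were taken for the cytosolic ribosome by symbol alone, so other genes can be among them. Of these 22 of 91 had a promoter peak (24.2%, 16.5 to 33.9). The interval of the cytosolic synthetases includes both shares. That of the mitochondrial synthetases, 26.2 to 69.0, includes the share of the mitochondrial ribosome and lies above that of the cytosolic ribosome, while the intervals of all 4 sets overlap. The differences were not tested.

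The enzymes were then paired by amino acid. Of the 20 amino acids, 17 have a separate cytosolic and mitochondrial enzyme, and for none of these 17 did both members of the pair have a promoter peak. For isoleucine, methionine, asparagine, proline, arginine, valine, tryptophan and tyrosine, the mitochondrial gene alone had a peak. For proline the cytosolic partner is Eprs, a fused enzyme that charges both glutamate and proline, and it had no peak. For phenylalanine, serine and threonine the cytosolic side alone had a peak. In the case of phenylalanine this was Farsb, which encodes the β subunit, while Farsa, which encodes the α subunit of the same tetramer, had none. In the case of threonine it was Tars and not Tarsl2, a second cytosolic threonyl enzyme. Pairs in which neither gene had a peak included those for alanine, cysteine, glutamate, histidine and leucine. The other 3 amino acids lack a separate mitochondrial enzyme. Glycine and lysine are charged in both compartments by the products of Gars and Kars, which had peaks. Glutamine is charged in the cytosol by the product of Qars, which had none, and mitochondria make its charged transfer RNA by another route. Since the cytosolic side had a peak in only 3 of the 17 pairs, at most 3 pairs could have had peaks on both sides, and the absence of such pairs is no result about pairing.

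Synthetases fall into class I and class II by the fold of the catalytic domain, and the shares of the classes were close, at 6 of 18 class I genes (33.3%) and 7 of 19 class II genes (36.8%), with Eprs, which carries a domain of each, left out. By compartment the counts were as follows, against the background of 13.4%. All 5 cytosolic genes with a peak were class II, of 11 such genes (45.5%, 21.3 to 72.0), and 0 of 9 cytosolic class I genes had a peak (upper limit of the interval 29.9%), which is near the background. In the mitochondrial set 6 of 9 class I genes had one (66.7%, 35.4 to 87.9), namely Iars2, Mars2, Rars2, Vars2, Wars2 and Yars2. Of the 8 mitochondrial class II genes, only Nars2 and Pars2 had one (interval 7.1 to 59.1%). The counts in each of these 4 sets are small and their differences were not tested.

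In the cytosol 8 synthetases are held together in the multi-synthetase complex, and of their genes (Dars, Eprs, Iars, Kars, Lars, Mars1, Qars and Rars) Kars alone had a promoter peak (12.5%, 2.2 to 47.1), a share near the 13.4% of all protein-coding genes. Of the 13 cytosolic genes whose products are outside the complex, 4 had a peak (30.8%, 12.7 to 57.6). These intervals overlap as well.

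The fold enrichment of a peak is the ratio of its signal at the summit to the control background, as the peak caller gave it. Over the 13 synthetase genes it had a median of 10.8 with quartiles of 8.7 and 16.8. Over all protein-coding genes with a promoter peak the median was 11.4, with quartiles of 8.2 and 16.5, so the quartiles of the synthetases lay close to these. The cytosolic genes had the strongest peak of the family and also the weakest. Sars, for the seryl enzyme, reached 20.3 with a −log10 q-value of 48.8, at chr3:108444641-108445376. Of all promoter peaks 87.8% had a lower fold enrichment. Kars, for the lysyl enzyme, followed at 19.3 with a −log10 q-value of 48.0, at chr8:112011260-112011521. Farsb was lowest at 7.4 with a −log10 q-value of 13.4, at chr1:78488646-78489116, and only 20.7% of promoter peaks were weaker.

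Gars, for the glycyl enzyme, had a fold enrichment of 13.8 and a −log10 q-value of 23.3 at chr6:55037723-55038055, although its closest copy of the palindrome had 2 mismatches. Tars, for the threonyl enzyme, had 9.4 and 20.8 at chr15:11399463-11399980. The median over the 5 cytosolic genes was 13.8. It became 9.4 when Gars and Kars were counted as mitochondrial.

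Among the mitochondrial genes the median was 10.2, and values ran from 7.9 to 16.8. Mars2 and Vars2, for the methionyl and valyl enzymes, shared the highest value of 16.8. Their −log10 q-values were 39.2 at chr1:55237036-55237362 and 48.2 at chr17:35667424-35667923. Pars2 (prolyl) followed at 13.3, with a −log10 q-value of 22.9 at chr4:106650995-106651216. Rars2 (arginyl) had 10.8 and 23.9 at chr4:34614801-34615033.

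Yars2 (tyrosyl) had a fold enrichment of 9.7 and a −log10 q-value of 18.0 at chr16:16302655-16303033. The other 3 mitochondrial peaks were the least significant of the family, each with a −log10 q-value of 12.4. They were Nars2 (asparaginyl) at 8.7, chr7:96951339-96951584, and Iars2 (isoleucyl) and Wars2 (tryptophanyl) at 7.9 each, chr1:185329278-185329472 and chr3:99140867-99141122. The values of the 2 compartments overlapped along the whole mitochondrial range, and which median was higher turned on Gars and Kars, since with both on the mitochondrial side the medians were 9.4 for the cytosolic and 12.0 for the mitochondrial genes.

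**Figure D2:**
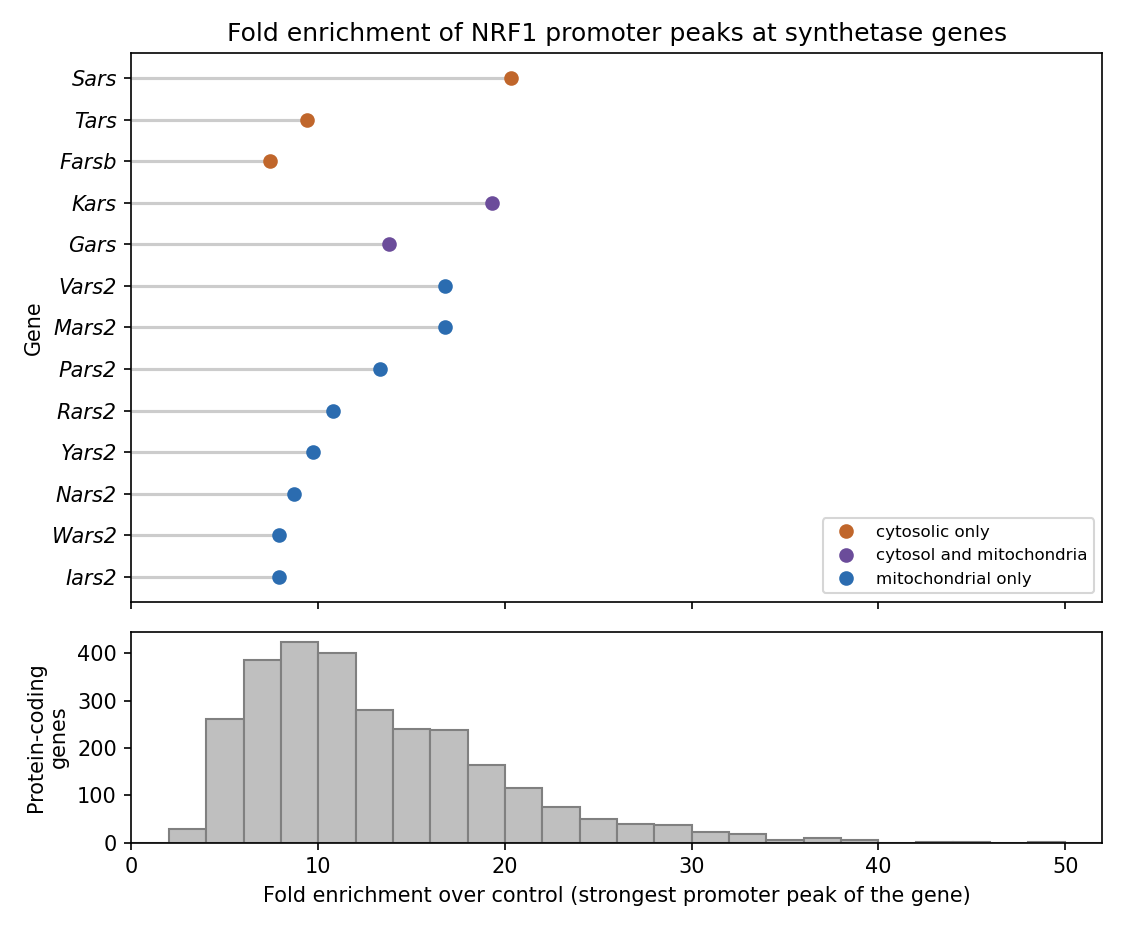
Fold enrichment of the promoter peak at each of the 13 synthetase genes (upper panel, points coloured by compartment), and number of protein-coding genes with a promoter peak at each fold enrichment (lower panel, bars). The synthetase peaks run from 7.4 at Farsb to 20.3 at Sars around a median of 10.8, and the values of the compartments overlap.

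The genes without a single-mismatch copy were not the weakest. Gars, Nars2 and Yars2 had fold enrichments of 13.8, 8.7 and 9.7, and the 10 genes with such a copy ran from 7.4 to 20.3, so that all 3 fell within their range.

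The summits lay close to the start of the gene. With positions before the start counted as negative, their median was −38.0 bp. The farthest lay 187 bp before (Tars) and 41 bp after (Sars), and 12 of 13 were within 100 bp (92.3%). For all protein-coding genes with a promoter peak the median was −59.0 bp and 67.2% were within 100 bp. In 9 genes the summit preceded the start. In Farsb, Sars, Iars2 and Pars2 it followed the start by 24, 41, 5 and 22 bp. It lay in the 5′ untranslated region of the last 3 and, in Farsb, in the 5′ untranslated region or a noncoding exon, depending on the transcript, so 2 of these genes were cytosolic and 2 mitochondrial. The other positions before the start were 16 bp in Vars2, 20 bp in Mars2, 38 bp in Kars, 45 bp in Rars2, 54 bp in Yars2, 57 bp in Gars, 61 bp in Wars2 and 69 bp in Nars2. The position does not depend on a choice between starts for most genes, since 36 of the 38 synthetases have 1 known start, the exceptions being Wars with 3 and Aars2 with 2, neither with a peak.

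Peak widths ran from 195 bp at Iars2 to 736 bp at Sars with a median of 327 bp, beside 290 bp over all peaks. The single-mismatch copies were searched within 100 bp of the summits. Taking the copy nearest the summit in each of the 10 genes, its centre was a median of 7 bp and at most 26.5 bp from the summit.

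**Figure D3:**
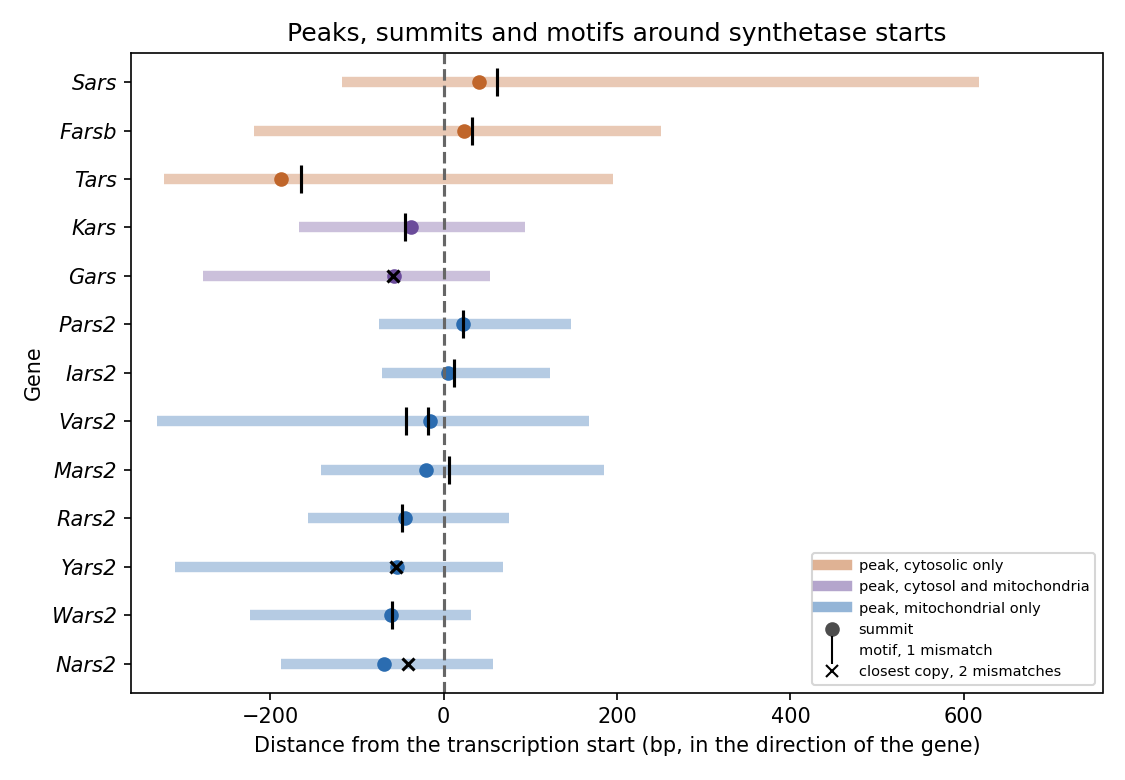
Peaks (bars), summits (points) and closest copies of the NRF1 palindrome (vertical ticks for 1 mismatch, crosses for 2) around the transcription start of each of the 13 synthetase genes, in bp in the direction of the gene. The summits lie within 100 bp of the start in all genes except Tars, and the copies lie beside the summits.

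The 25 synthetase genes without a promoter peak were examined in the same windows. None of them had a copy of the palindrome with at most 1 mismatch from 1000 bp before to 100 bp after a start, so all 10 synthetases that held such a copy in this window had a peak. For all protein-coding genes 2548 held one (12.1%), and 1920 of these had a peak (75.4%). Because only 3.5% of all protein-coding genes without a peak held a copy, 0 of 25 is near what the background gives and is no result about the synthetases. The closest match had 2 mismatches in 9 of the 25 and 3 mismatches in 14, and Iars and Qars had more. Together with the 13 bound genes this makes 22 of 38 with at most 2 mismatches (57.9%), against 37.3% of all protein-coding genes. All 13 bound genes are in this count, so the gap partly restates their higher share of peaks and is no separate result. Of the synthetases without a copy of at most 1 mismatch 3 of 28 had a peak (10.7%), beside 4.8% of all protein-coding genes.

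For most of the 25 genes NRF1 was not found near by. The nearest summit was a median of 64815 bp from the start and over 10000 bp away for 22 genes. These distances were not set beside those of other genes without a peak, so they are no result about the synthetases. The cytosolic genes without a peak were Aars, Cars, Dars, Eprs, Farsa, Hars, Iars, Lars, Mars1, Nars, Qars, Rars, Tarsl2, Vars, Wars and Yars. The mitochondrial ones included Aars2, Cars2, Ears2, Fars2, Hars2, Lars2, Sars2 and Tars2. The largest distance was 2042736 bp, at Lars, for the leucyl enzyme. The 3 genes within 10000 bp were Sars2, Cars2 and Qars, at 212, 5053 and 9472 bp. A gene without a peak in this list had no signal past the threshold of the caller, which at unknown depth does not show that NRF1 was absent.

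Sars2, the mitochondrial seryl enzyme, was the gene just outside the limit. Its summit lay 212 bp after the start, inside a coding exon, in a peak at chr7:28741903-28742351 with a fold enrichment of 10.0, a −log10 q-value of 23.0 and a copy of the palindrome with at most 1 mismatch. The same summit lay in the promoter of Mrps12, for a protein of the mitochondrial ribosome, whose start is 147 bp from that of Sars2 on the opposite strand. This was the only peak inside the body of a synthetase gene other than the promoter peaks. On the inner side of the limit, the summit farthest before a start was that of Tars at 187 bp, and the one farthest after a start was that of Sars at 41 bp.

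Several synthetase genes start back to back with another gene. A gene on the opposite strand started within 1000 bp of 11 of the 38, and 2 of these 11 had a promoter peak (18.2%, 5.1 to 47.7), beside 806 of 2822 protein-coding genes with such a neighbour (28.6%). The bound ones were Kars, whose start is 5 bp from that of Terf2ip, for a protein of the telomere complex, and Rars2, whose start is 15 bp from that of Orc3, for a subunit of the origin recognition complex. At both the single summit lay in the promoters of both genes, so the peak cannot be assigned to 1 of them.

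Among those without a peak, Hars and Hars2 are each other's neighbour, with starts 4 bp apart, so that 1 stretch of DNA serves the histidyl enzymes of cytosol and mitochondria. It had no peak, and the nearest summit to either start was more than 10000 bp away. The others included Vars, Wars, Yars, Ears2, Fars2 and Sars2. Thus 11 of the 13 bound synthetases had no opposite-strand start within 1000 bp, and their peaks lay in promoters of the synthetase without such a partner.

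Base composition was examined because NRF1 sites are GC-rich and contain CpG. It was measured over 300 bp that begin 250 bp ahead of the start. The median GC content was 58.0% at the 13 synthetases with a peak and 58.3% at the 25 without, and the CpG ratio (observed CpG over that expected from C and G content) was 0.803 and 0.739. Over all protein-coding genes the same medians were 63.3% with a peak and 55.3% without, and the CpG ratios were 0.874 and 0.510. Synthetase promoters with and without a peak thus had almost the same median GC content. The median CpG ratio was lower without a peak in the mitochondrial genes (0.730 against 0.836) but not in the cytosolic genes, where it was 0.770 with a peak and slightly higher without. In the cytosolic genes without a peak GC content ran from 49.0 to 66.7%, and all 8 mitochondrial genes with a peak lay within that range, the highest being Rars2 at 66.3%.

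The shares were therefore also taken over promoters with at least 55% GC and a CpG ratio of at least 0.6, where 25.8% of protein-coding genes, 2294 of 8899, had a promoter peak. Of the 27 synthetases with such a promoter 11 had a peak (40.7%). For the mitochondrial genes it was 8 of 14 (57.1%) and for the cytosolic genes 3 of 13 (23.1%), the latter near this second background. Of the 11 such genes that are cytosolic alone, 1 had a peak (9.1%). The 2 bound genes outside these limits were Farsb, at 49.3% GC, and Sars, with a CpG ratio of 0.589.

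**Figure D4:**
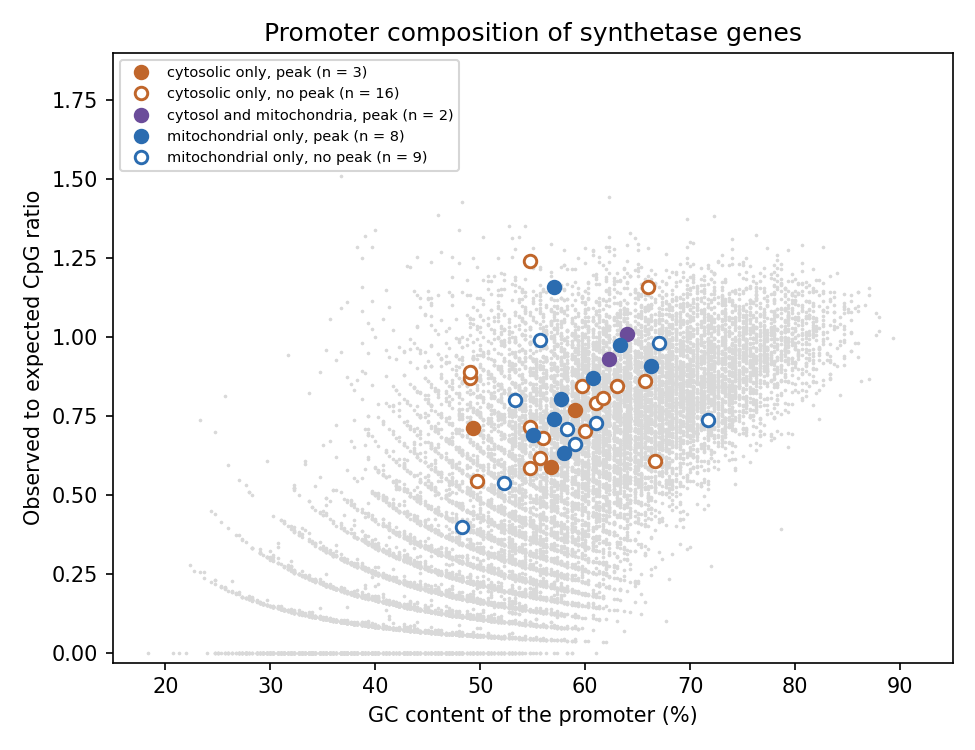
GC content (x axis, in percent) and observed to expected CpG ratio (y axis) of the 300 bp around the start of each synthetase gene, filled with a promoter peak and open without, over all protein-coding genes in grey, of which 1 lies outside the axes. Filled and open points occupy the same region, with medians of 58.0% and 58.3% GC.

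A list of 21 genes whose products act beside the synthetases was examined in the same way, and 7 had a promoter peak (33.3%, 17.2 to 54.6), beside 34.2% of the synthetases and 13.4% of all protein-coding genes. Of the 14 partners whose promoter met the GC and CpG limits above, 5 had a peak (35.7%), beside 25.8% of all such protein-coding genes. All 7 partners with a peak had a copy of the palindrome with at most 1 mismatch within 100 bp of the summit, as did 66.5% of protein-coding genes with a promoter peak. Their fold enrichments ran from 7.2 to 18.5 with a median of 10.1. Pstk and Sepsecs, for the enzymes that turn serine on its transfer RNA into selenocysteine, had fold enrichments of 18.5 and 13.2. Mtfmt, for the enzyme that formylates the mitochondrial initiator methionyl-tRNA, had 13.9, and its summit lay 10 bp before the start. The gene of the mitochondrial methionyl enzyme, Mars2, also had a peak.

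Among the partners with a peak, Trnt1, for the enzyme that adds the CCA end to which amino acids are joined, had a fold enrichment of 8.8, and Dtd2, for an enzyme that removes mischarged amino acids, had 8.9. Eef1a1, for the factor that carries charged transfer RNA to the cytosolic ribosome, had 10.1. Eef1e1 had 7.2 and was the only one of the 3 genes for scaffold proteins of the multi-synthetase complex with a peak, as Aimp1 and Aimp2 had none. The nearest summit to Aimp2 lay 302 bp after its start.

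The 14 partners without a peak were Aimp1, Aimp2, Aarsd1, Prorsd1, Dtd1, Eefsec, Eef1a2, the 3 genes of the amidotransferase that makes mitochondrial glutaminyl-tRNA (Qrsl1, Gatb and Gatc), and 4 genes for factors of mitochondrial translation (Tufm, Tsfm, Gfm1 and Gfm2). Ears2, which acts before the amidotransferase in the mitochondrial route to charged glutamine, also had none, but at a background of 13.4% a count of 0 in these 4 genes is no result about that route.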

How the data were processed

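The authors mapped single-end reads of 50 bases to mm10 with Bowtie 1.1.2, kept unique matches and called peaks with MACS2 2.2.7.1 against input DNA; their methods name the broad option, but the deposited list has the narrow layout with summits. Depth and any pooling are not given in the sources used here. Per the file's layout, the deposited values are start, end and summit positions, the fold enrichment (a ratio to the control background), and p-values and q-values as −log10.

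Starts came from known RefSeq transcripts (GRCm38.p6). For each gene the strongest promoter peak was kept. The palindrome was searched on both strands in Python 3.11.15 with pysam 0.24.0. Every value is a description of 1 peak list, so no test was run. Wilson 95% intervals treat genes as independent, which neighbours and paralogs are not. Accessible, GC-rich DNA near starts can be recovered more readily, and unique mapping loses repeated sequence. The code was tested on simulated peaks and sequences. Members and lists were chosen with earlier results of these data known. Members are named, except that 1 item is not reported here, and of other genes only the fixed partners and neighbours sharing a promoter. Alternatives were the promoter window, peak and start criteria, mismatches, composition and the placing of Gars and Kars.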

Additional observations from a re-analysis of the deposited data

How the results depend on the processing

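Of 46 alternative values, 9 moved beyond the Wilson interval of a share, the quartiles of a median or 1.5 times a count, and 37 did not. Within these limits the medians of fold enrichment still changed order, at 9.4 for cytosolic and 12.0 for mitochondrial genes with Gars and Kars counted as mitochondrial. Of the moved values 8 concern all protein-coding genes and 1 the palindrome at synthetase peaks. The share of all protein-coding genes with a promoter peak, 13.4%, became 14.1% with 500 bp on either side of the start, 14.7% with 2000 bp before to 500 bp after, 14.2% with any overlap, 12.8% at a q-value of at most 1e-05, 12.8% at a fold enrichment of at least 5, 13.9% with predicted transcripts, 12.5% with the most 5′ start alone and 25.8% in GC- and CpG-rich promoters. With no mismatch allowed the count of synthetase peaks with the palindrome fell from 10 to 0, and with 2 allowed it was 13. At 2 mismatches no share was taken over all protein-coding genes with a promoter peak, so that count is no result about the synthetases. The number of synthetases with a peak rose to 14 with the windows that end 500 bp after the start and with any overlap. There Sars2 entered and the mitochondrial share became 52.9%. Since Sars also had a peak, the serine pair then had peaks on both sides. The cytosolic share stayed at 23.8% except at 15.8% without Gars and Kars and 23.1% in rich promoters. Without peaks shared by neighbours the median fold enrichment was 11.6 for cytosolic genes. No paired analysis was possible because a single peak list stands for the only group, and for the same reason no replicate could be left out. Unknown depth limits any reading of a missing peak.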
